A study of Mus musculus with 9 samples.

Results

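Calcineurin, its NFAT substrates and its RCAN regulators were examined in the testis of Tmem203 null mice. The 10 genes were all those of a short list with a probe set annotated to 1 gene: the catalytic subunits Ppp3ca, Ppp3cb and Ppp3cc, the regulatory subunits Ppp3r1 and Ppp3r2, the transcription factors Nfatc1, Nfatc2 and Nfatc3, and the regulators Rcan1 and Rcan2. They are 10 of the 18193 genes with a single-gene probe set on the array, and 30 probe sets read them. TMEM203 is a membrane protein of the endoplasmic reticulum that was found through its effect on cytosolic calcium and on calcineurin-dependent transcription factors, and the arrays asked which transcripts differ in testes that lack it. Both groups were mice 24 weeks old, with no treatment. The line was made from C57BL/6 stem cells in C57BL/6J host blastocysts and was later crossed to Flpe deleter mice. The null allele lost the start codon and part of the leader of Tmem203, and a stretch of vector with 1 FRT site remained after the selection cassette was removed with Flpe. The 4 WT testes carried the intact gene. The methods took each testis of a mouse separately, and no label says whether every array stands for another animal, so p-values describe how these samples spread and no more.

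Calcineurin is a calcium- and calmodulin-dependent phosphatase made of a catalytic A subunit and a calcium-binding B subunit. It dephosphorylates NFAT proteins, which then enter the nucleus, and RCAN proteins bind the enzyme and restrain it. Most cells use the somatic subunits, whereas haploid male germ cells make a form of their own from Ppp3cc and Ppp3r2, which sperm need for a flexible midpiece and for fertility.

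The promoters of Rcan1 and Ppp3r2 are printed as examples of start regions in the circuit. Rcan1 is transcribed from alternative first exons, and induction of its shorter form by NFAT is a textbook feedback of calcineurin signalling. Both Rcan1 start regions and that of Ppp3r2 are shown from the RefSeq sequence of GRCm38.p6, on the strand of the gene, because the Rcan1 probe sets moved in opposite directions and Ppp3r2 carries the sperm-specific B subunit. Capitals mark GGAAA, the core of NFAT sites, and TGACGTCA, the full cAMP response element, which is the same on both strands. GGAAA was searched on both strands and reads TTTCC on the other, and the motifs do not overlap each other here.
Rcan1, chr16:92400029-92400328, minus strand: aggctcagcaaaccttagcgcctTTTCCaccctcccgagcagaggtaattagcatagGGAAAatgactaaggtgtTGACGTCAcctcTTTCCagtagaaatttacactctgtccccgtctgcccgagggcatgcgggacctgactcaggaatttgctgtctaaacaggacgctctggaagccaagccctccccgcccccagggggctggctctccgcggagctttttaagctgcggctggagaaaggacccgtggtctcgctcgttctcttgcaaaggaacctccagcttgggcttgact
Rcan1, chr16:92466120-92466419, minus strand: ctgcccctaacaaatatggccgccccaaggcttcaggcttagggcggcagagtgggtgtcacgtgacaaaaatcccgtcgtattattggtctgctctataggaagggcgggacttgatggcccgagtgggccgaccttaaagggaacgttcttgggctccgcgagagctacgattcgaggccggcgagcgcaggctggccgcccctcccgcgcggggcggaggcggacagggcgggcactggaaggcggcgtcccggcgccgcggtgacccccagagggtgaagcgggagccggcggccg
Ppp3r2, chr4:49681934-49682233, minus strand: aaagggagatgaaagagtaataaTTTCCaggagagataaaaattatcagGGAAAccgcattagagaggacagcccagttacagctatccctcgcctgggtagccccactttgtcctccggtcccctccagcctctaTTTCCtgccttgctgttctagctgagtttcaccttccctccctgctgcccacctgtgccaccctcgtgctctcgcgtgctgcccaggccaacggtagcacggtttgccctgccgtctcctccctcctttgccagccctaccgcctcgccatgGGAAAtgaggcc
The downstream Rcan1 window held 3 GGAAA matches and 1 TGACGTCA, the upstream one held 0 of either, and the Ppp3r2 window held 4 GGAAA matches. GGAAA stood in 61.3% of 32851 promoter windows of this length and TGACGTCA in 1.79%, so the first is common and the second is not. Windows of 7 of the 10 genes were read, and Ppp3ca, Ppp3cc and Nfatc1 were not analysed here.

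Each array gave log2 signals per probe set after Robust Multichip Average (RMA) processing, and a change is the null mean minus the WT mean on that log2 scale. The array medians lay between 6.96 and 7.05, and any pair of arrays correlated at 0.993 to 0.998. WT replicate 3 stood apart from the other arrays on the second principal component. Tmem203 itself had log2 signals of 9.67, 9.91, 9.93 and 9.71 in WT and 9.10, 9.13, 9.13, 9.06 and 9.10 in null samples, a change of -0.70 ± 0.06 (SE, limma adjusted p = 0.000287). All null samples lay below all WT samples, although transcript remained measurable, and where the probe set lies relative to the replaced bases is not given in the sources used here. Markers of elongating spermatids had mean log2 signals of 14.12 to 14.15 in WT and 14.10 to 14.15 in null samples, and 0 of these 11 passed. Theirs was the highest mean signal of the marker lists, and whether the array resolves differences at that level was not tested. These signals do not count cells. By DNA staining at a later age, the paper found far fewer condensed haploid cells in null testes, but no difference in young mice. Its histology, also at a later age, described the reduction of late spermatids as subtle. The 3′ minus 5′ log2 signal of the Gapdh controls, a sign of RNA integrity, was 0.92 to 0.95 in WT and 0.81 to 0.90 in null samples, without overlap. For the actin controls it was 0.56 to 0.65 and 0.54 to 0.62. Its part in the results was not tested.

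Of the 30 probe sets, 26 were detected, with 5 or more on the log2 scale on some array, and 4 passed an adjusted p of 0.05. They were 2 probe sets of Nfatc2 and 1 of Rcan1, which were lower in null samples, and 1 of Rcan2, which was higher. Across the array 7.48% of 45037 probe sets passed, 4.12% upward and 3.36% downward. The 3 falls in 30 were above the array's share, but 2 of them belong to 1 gene and are not separate observations. The 1 rise was near the array's share. The count of members was 1 without null replicate 1 or 4 and 2 without null replicate 5. Only 1 of the 30, a probe set of Nfatc2, also met the 1.5-fold change that the methods ask for, against 1.1% of the array. The null and WT samples did not overlap for 4 of the 30, 2 above and 2 below, a share near the 11.8% of all probe sets. The median change of the 30 was -0.02, beside -0.01 for all probe sets. In whole testis, fewer cells of a type and less RNA per cell cannot be told apart.

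**Figure D1:**
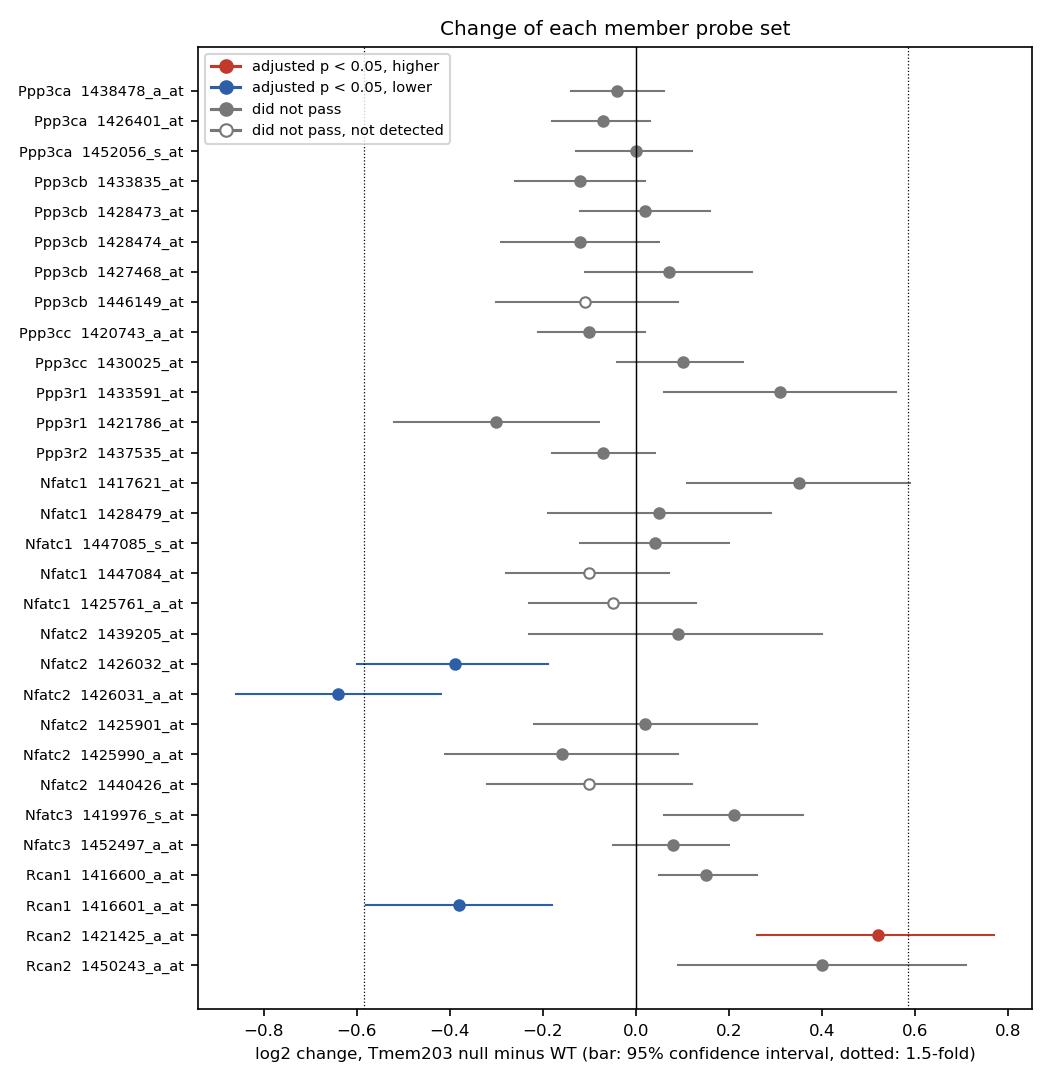
Change on the log2 scale (x axis, null minus WT) for all 30 probe sets with its 95% confidence interval, with open circles for probe sets that were not detected and dotted lines at a 1.5-fold change. The subunits lie close to 0, apart from Ppp3r1, and the 4 probe sets that passed belong to Nfatc2, Rcan1 and Rcan2.

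The catalytic subunit of sperm calcineurin, Ppp3cc, did not pass the test on either of its probe sets. Its brighter probe set (1420743_a_at) had log2 signals of 12.56, 12.59, 12.51 and 12.52 in WT and 12.54, 12.48, 12.44, 12.36 and 12.42 in null samples. Most null samples lay below the WT samples, and null replicate 1 lay among them. The change was -0.10 ± 0.05 (SE, adjusted p = 0.300), with a 95% interval of -0.21 to 0.02. The dimmer probe set (1430025_at) had log2 signals of 8.64, 8.66, 8.46 and 8.61 in WT and 8.65, 8.67, 8.64, 8.81 and 8.68 in null samples. It moved the other way, by 0.10 ± 0.06 (adjusted p = 0.380), and its groups overlapped.

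Ppp3r2, the sperm B subunit, was read by a single probe set. Its log2 signals were 13.29, 13.39, 13.27 and 13.24 in WT and 13.22, 13.25, 13.24, 13.25 and 13.16 in null samples. The groups overlapped and the change was -0.07 ± 0.05 (adjusted p = 0.428, 95% interval -0.18 to 0.04). Over the 3 probe sets of sperm calcineurin the changes lay between -0.10 and 0.10, and all 3 intervals lay between -0.21 and 0.23. The Ppp3r2 probe set and the brighter one of Ppp3cc had high signals, with WT means of 13.3 and 12.55. Whether the array resolves differences at that level was not tested. Spata33, which ties sperm calcineurin to mitochondria and was named after its value was seen, stood at 0.01 (adjusted p = 0.899).

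The somatic catalytic subunits did not pass either. Ppp3ca, the main A subunit of brain and many other tissues, had log2 signals of 12.74, 12.73, 12.71 and 12.74 in WT and 12.68, 12.71, 12.69, 12.65 and 12.71 in null samples on its brightest probe set (1438478_a_at). The groups met at 12.71, and the change was -0.04 ± 0.04 (adjusted p = 0.62, 95% interval -0.14 to 0.06). Its other probe sets stood at -0.07 and 0.00. Ppp3cb, the second widely expressed A subunit, had log2 signals of 10.68, 10.57, 10.80 and 10.79 in WT and 10.56, 10.61, 10.53, 10.69 and 10.54 in null samples (1433835_at). These overlapped, with a change of -0.12 ± 0.06 (adjusted p = 0.296, 95% interval -0.26 to 0.02). The other 4 Ppp3cb probe sets, 1 of them not detected, stood between -0.12 and 0.07.

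**Figure D2:**
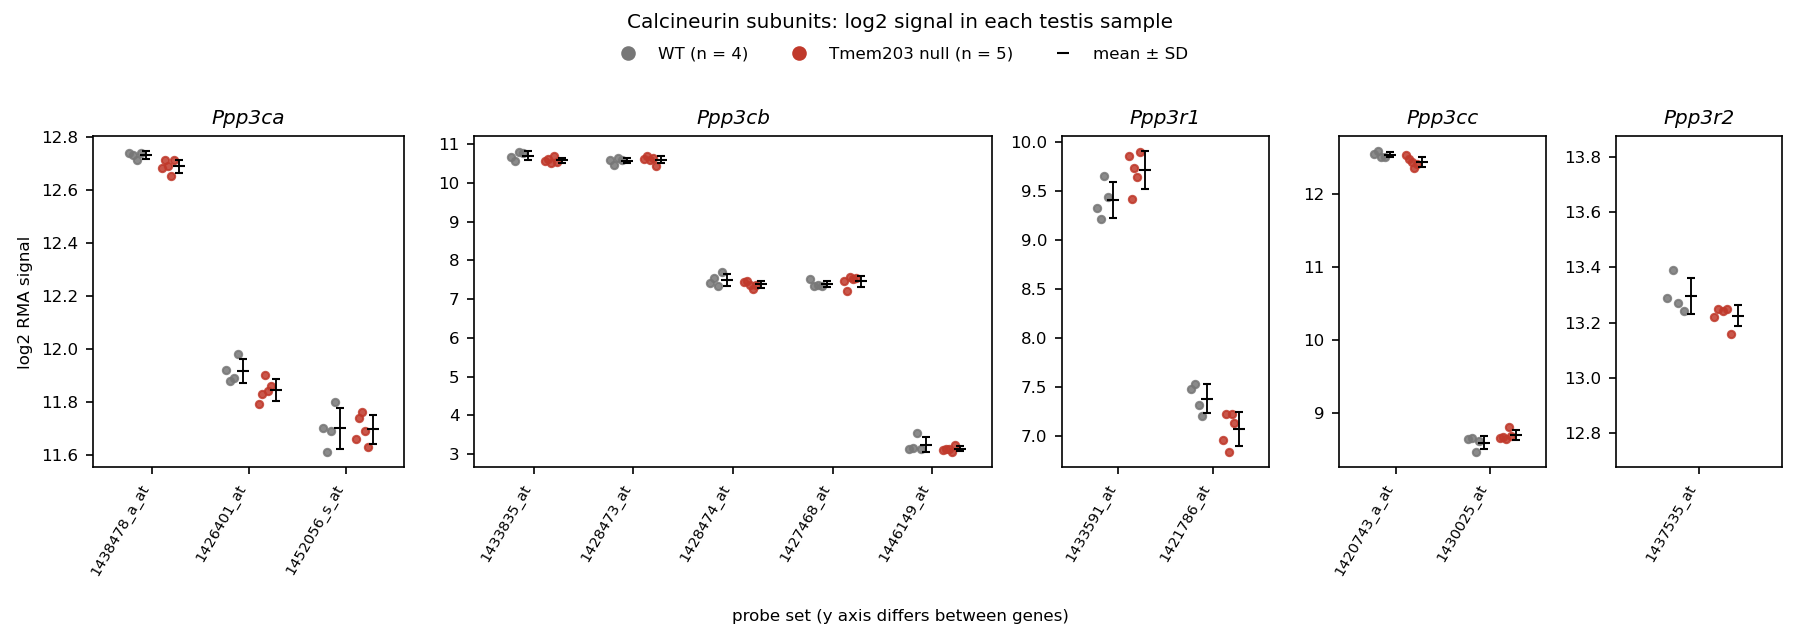
Log2 RMA signal (y axis, with a scale of its own for each gene) of every probe set of the calcineurin subunits in each WT and Tmem203 null testis, with mean ± SD. WT and null points lie at nearly the same height for Ppp3ca, Ppp3cb, Ppp3cc and Ppp3r2, while the probe sets of Ppp3r1 move in opposite directions.

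Ppp3r1, the somatic B subunit, was the subunit whose probe sets departed most from 0, and they did so in opposite directions. The brighter (1433591_at) had log2 signals of 9.33, 9.21, 9.65 and 9.44 in WT and 9.86, 9.42, 9.73, 9.64 and 9.90 in null samples. The dimmer (1421786_at) had 7.48, 7.53, 7.32 and 7.21 in WT and 6.96, 7.23, 6.84, 7.23 and 7.14 in null samples. Both overlapped between the groups. The first had a difference of 0.31 ± 0.11 (adjusted p = 0.133, 95% interval 0.06 to 0.56) and the second one of -0.30 ± 0.10 (adjusted p = 0.0969, 95% interval -0.52 to -0.08). A further probe set (1450368_a_at), annotated to Wdr92 as well as Ppp3r1 and therefore outside the rule, had log2 signals of 9.52 to 9.82 in WT and 9.13 to 9.46 in null samples. Its groups did not overlap and it changed by -0.34 ± 0.09 (adjusted p = 0.0402), but its signal cannot be given to either gene. In all, 0 of the 13 subunit probe sets passed limma's adjusted p, and 2 of the 13, both of Ppp3r1, had an unadjusted p under 0.05.

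The balance of sperm and somatic subunits was described within each array, taking the brightest probe set of each gene. A difference between probe sets is not a ratio of amounts, so only its shift between the groups can be read. Ppp3cc minus Ppp3ca was -0.22 to -0.14 in WT and -0.28 to -0.15 in null samples, a shift of the mean by -0.06. Ppp3cc minus Ppp3cb was 1.72 to 2.03 in WT and 1.67 to 1.97 in null samples, a shift of 0.02. Neither pair of A subunits separated the groups. Ppp3r2 minus Ppp3r1 was 3.62 to 4.18 in WT and 3.26 to 3.83 in null samples, a shift of -0.38. That shift came mostly from the Ppp3r1 probe set that was higher in null samples, whereas the other Ppp3r1 probe set went the other way.

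**Figure D3:**
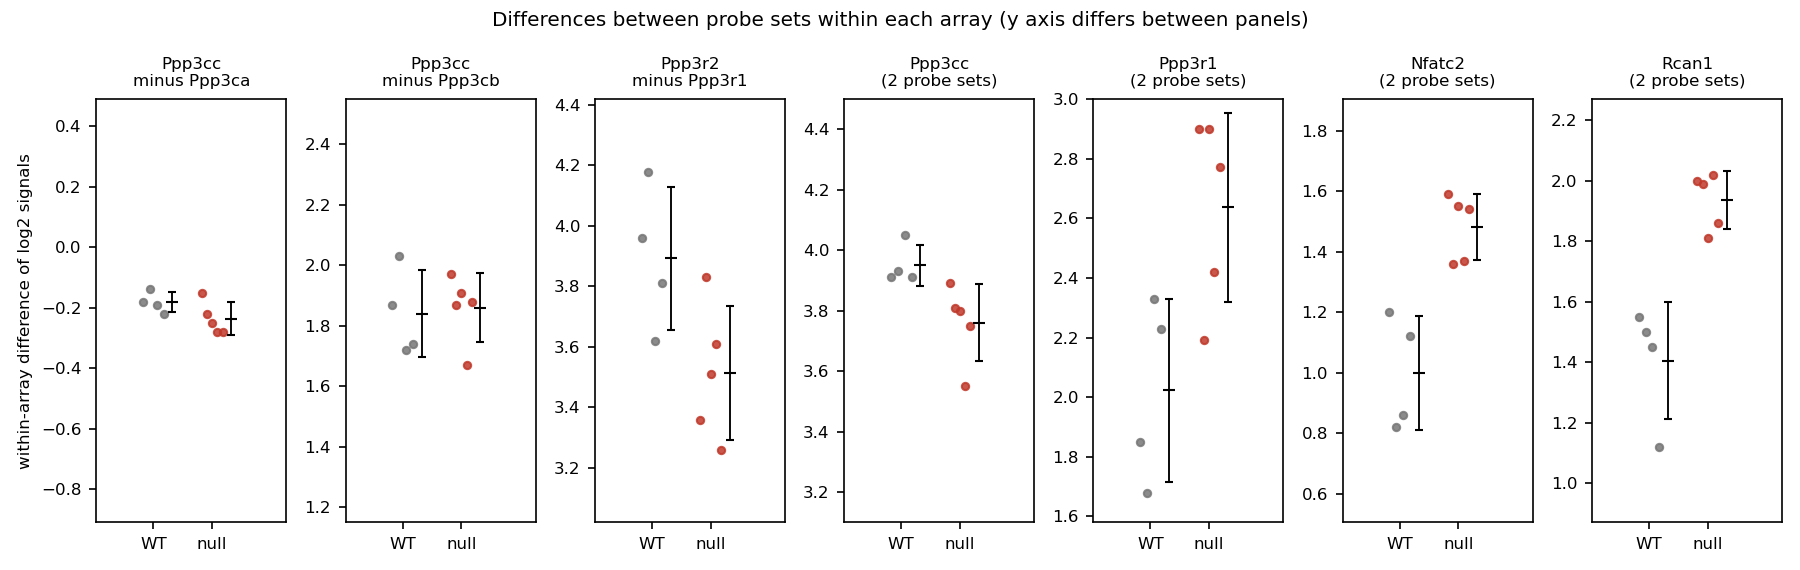
Differences of log2 signals between probe sets of the same array (y axis, with a scale of its own for each panel) in WT (grey, n = 4) and Tmem203 null (red, n = 5) testes, with mean ± SD. The first 3 panels set sperm against somatic subunits and overlap between the groups, and the last 4 set the brightest probe set of a gene against its second, where Rcan1, Nfatc2 and, by a small margin, Ppp3cc separate the groups and Ppp3r1 does not.

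Among the NFAT factors, Nfatc2 was lower in null testes on 2 of its 6 probe sets. NFATc2 (NFAT1) is a calcium-regulated factor best known from T cells, where it drives cytokine genes. Probe set 1426031_a_at had log2 signals of 6.83, 7.13, 7.15 and 6.96 in WT and 6.51, 6.54, 6.39, 6.11 and 6.34 in null samples. All null samples lay below all WT samples. The means were 7.02 ± 0.15 (SD, n = 4) and 6.38 ± 0.17 (SD, n = 5), a change of -0.64 ± 0.10 (SE, limma adjusted p = 0.00435) or 1.56-fold lower. Leaving out any 1 array kept the change between -0.70 and -0.57 and the adjusted p at 0.018 or below.

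Nfatc2 probe set 1426032_at had log2 signals of 7.11, 7.08, 6.77 and 7.15 in WT and 6.54, 6.77, 6.75, 6.50 and 6.60 in null samples. WT replicate 3 lay at the level of null replicate 2, the highest null sample, and above it stood the other WT samples. The change was -0.39 ± 0.09 (adjusted p = 0.0275). It no longer passed without WT replicate 1, 2 or 4 or without null replicate 1, 4 or 5 (adjusted p up to 0.0802), nor by the methods' t-test (adjusted p = 0.0737). The brightest Nfatc2 probe set, 1439205_at, showed no such fall, with log2 signals of 8.32, 7.90, 7.63 and 8.27 in WT and 8.13, 8.13, 8.30, 7.87 and 8.14 in null samples. Its groups overlapped and its change was 0.09 ± 0.14 (adjusted p = 0.758), turning to -0.05 without WT replicate 3. The other 3 Nfatc2 probe sets stood at 0.02, -0.16 and -0.10, the last of them not detected.

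Markers of T cells, which a whole testis also holds, gave no call beside Nfatc2. Of 6 measured, 0 passed in either direction, and their mean log2 signal was 6.35 to 6.90 in WT and 6.37 to 6.67 in null samples. The median change was -0.11. Cd4 came nearest to passing, at -0.34 (limma adjusted p = 0.0524), with -0.12 on its brightest probe set. Cd8a stood at -0.29 (adjusted p = 0.192), while Cd3e and Cd3g stood at 0.04. The part of T cells in the fall of Nfatc2 was not tested.

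Nfatc1, a factor of lymphocytes, osteoclasts and heart valves, did not pass on any of its 5 probe sets, of which 3 were detected. The probe set nearest to the threshold, 1417621_at, had log2 signals of 6.27, 5.97, 5.95 and 6.40 in WT and 6.74, 6.43, 6.52, 6.41 and 6.40 in null samples. The groups met at the highest WT sample, and the change was 0.35 ± 0.11 (adjusted p = 0.0806). Without WT replicate 4 it was 0.43 and passed (adjusted p = 0.0377). The other 4 stood between -0.10 and 0.05. Nfatc3, a factor with roles in developing thymocytes and muscle, had log2 signals of 11.07, 10.94, 10.97 and 11.10 in WT and 11.37, 11.10, 11.23, 11.18 and 11.27 in null samples on its brighter probe set (1419976_s_at). Null replicate 2 met the highest WT sample, and the change was 0.21 ± 0.07 (adjusted p = 0.0846), beside 0.08 ± 0.06 (adjusted p = 0.452) on the dimmer one. With limma's trend and robust estimation the brighter probe set passed (adjusted p = 0.0438).

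**Figure D4:**
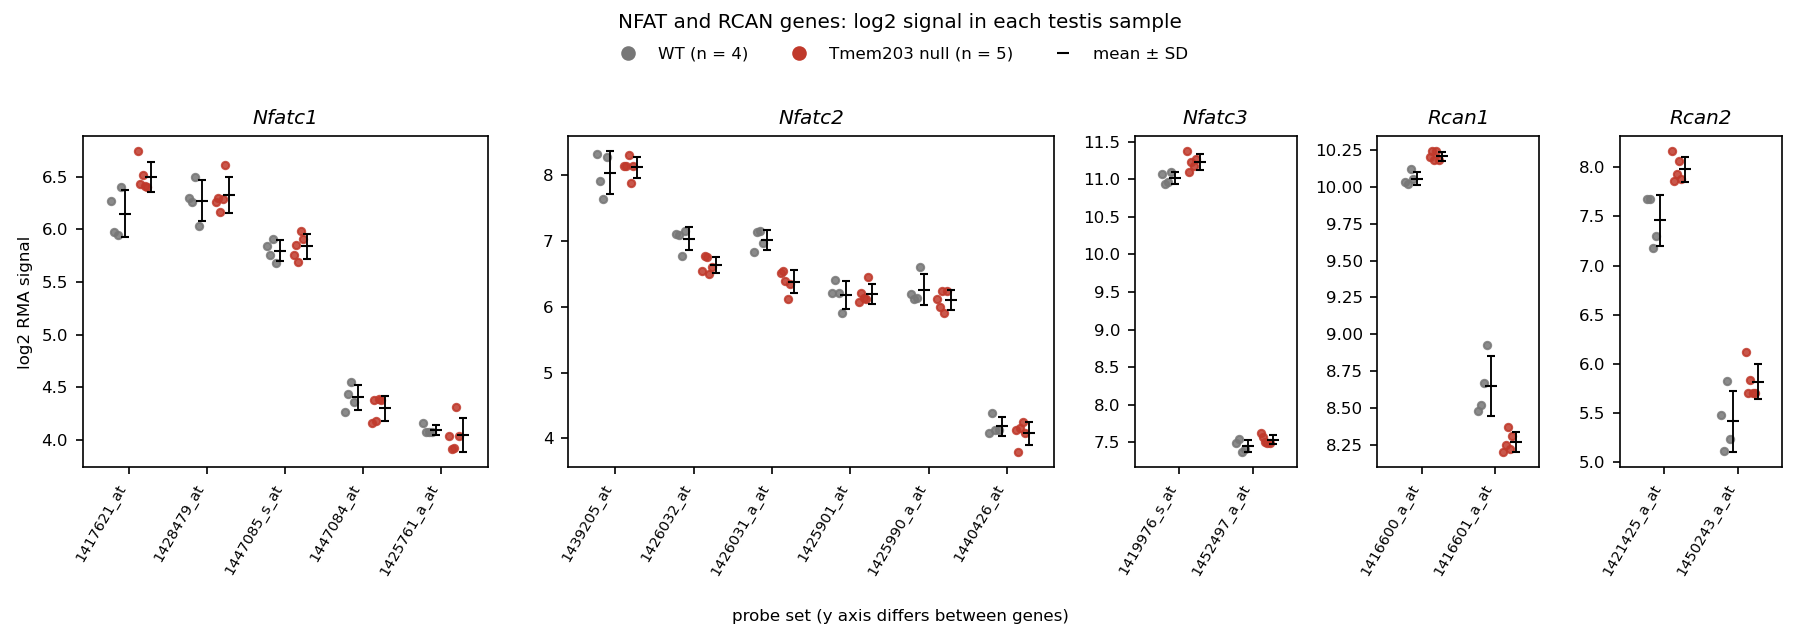
Log2 RMA signal (y axis, with a scale of its own for each gene) of every probe set of Nfatc1, Nfatc2, Nfatc3, Rcan1 and Rcan2 in each WT and Tmem203 null testis, with mean ± SD. Null samples lie wholly below WT for 1426031_a_at of Nfatc2 and 1416601_a_at of Rcan1, and wholly above WT for 1421425_a_at of Rcan2 and 1416600_a_at of Rcan1.

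Rcan1, the calcineurin inhibitor whose promoters are printed above, gave separated groups on both of its probe sets, in opposite directions. The brighter, 1416600_a_at, had log2 signals of 10.03, 10.02, 10.12 and 10.05 in WT and 10.20, 10.24, 10.18, 10.24 and 10.18 in null samples. All null samples lay above all WT samples, but the change of 0.15 ± 0.05 did not pass (limma adjusted p = 0.0774). It passed without WT replicate 3 (0.17, adjusted p = 0.0497) and, with all arrays, by the methods' t-test (Benjamini-Hochberg adjusted p = 0.0241). The dimmer, 1416601_a_at, had 8.48, 8.52, 8.67 and 8.93 in WT and 8.20, 8.25, 8.37, 8.22 and 8.31 in null samples. Here all null samples lay below all WT samples, and the change of -0.38 ± 0.09 passed (adjusted p = 0.0297). It no longer passed without WT replicate 3 or without null replicate 1, 2, 4 or 5 (adjusted p up to 0.0729), nor by the methods' t-test (adjusted p = 0.0762). Which of the Rcan1 probe sets is called therefore depends on the test.

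Rcan2, which encodes a second calcineurin regulator of the same family, was higher in null testes. Probe set 1421425_a_at had log2 signals of 7.68, 7.68, 7.18 and 7.30 in WT and 8.16, 7.86, 7.93, 8.06 and 7.88 in null samples. All null samples lay above all WT samples. The means were 7.46 ± 0.26 (SD, n = 4) and 7.98 ± 0.13 (SD, n = 5), a change of 0.52 ± 0.11 (SE, adjusted p = 0.0238) or 1.43-fold higher. The adjusted p went up to 0.0588 without WT replicate 4 or null replicate 1 or 4, and by the methods' t-test it was 0.0757. The second probe set, 1450243_a_at, had 5.48, 5.12, 5.83 and 5.24 in WT and 6.12, 5.71, 5.84, 5.71 and 5.71 in null samples. WT replicate 3 lay among the null samples, and the change of 0.40 ± 0.14 did not pass (adjusted p = 0.119). Without that replicate it was 0.54 (adjusted p = 0.0216), and with array weights it also passed (0.44, adjusted p = 0.0439).

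Markers of several cell types were counted in the same comparison, each gene by its probe set of smallest p, beside 8.03% of 16180 genes across the array that were higher and 6.82% that were lower on that rule. The mean log2 signals given here are over the brightest probe set of each marker. Of 10 Sertoli cell markers 6 were higher and 0 lower, with a mean log2 signal of 9.94 to 10.13 in WT and 10.20 to 10.37 in null samples. The other lists had at most 1 call each. Of 6 macrophage markers 1 was higher, at 8.66 to 9.09 in WT and 9.06 to 9.28 in null samples. Of 3 Leydig cell markers 1 was higher, Cyp11a1 of steroid synthesis (0.50, adjusted p = 0.00468), but 0 on the brightest probe sets (Cyp11a1 at 0.34, adjusted p = 0.383), where the list lay at 11.33 to 12.19 and 11.81 to 12.48. Of 7 spermatogonial markers 1 was higher, Gfra1, the GDNF co-receptor of stem cells (1.27, adjusted p = 0.000502), again with 0 on the brightest probe sets (Gfra1 at -0.17, adjusted p = 0.153) and a list mean of 9.99 to 10.12 and 10.06 to 10.12. Of 9 spermatocyte markers 1 was lower, at 12.22 to 12.30 in WT and 12.14 to 12.21 in null samples. Of 5 endothelial markers 1 was lower, Vwf, a clotting factor of the vessel wall (-0.37, adjusted p = 0.013), at 7.06 to 7.21 and 7.14 to 7.27. For round spermatids 0 of 8 passed, at 12.98 to 13.07 and 12.92 to 13.00, and for peritubular myoid cells 0 of 5, at 8.73 to 9.26 and 8.79 to 9.07. Cyp11a1, Gfra1 and Vwf were named after their values were seen. The part of cell composition in the changes of Nfatc2, Rcan1 and Rcan2 was not tested.

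Whether the probe sets of a gene moved apart was tested directly, in a fit added after the data were seen, on the within-array difference between the 2 detected probe sets with the highest mean signal. The test passed for 2 of the 9 genes that had such a pair, beside 6.01% of 7437 genes across the array. For Rcan1 the difference was 1.55, 1.5, 1.45 and 1.12 in WT and 2.00, 1.99, 1.81, 2.02 and 1.86 in null samples, with no overlap. It grew by 0.53 ± 0.09 on the log2 scale (SE, adjusted p = 0.00803). For Nfatc2, 1439205_at minus 1426032_at was 1.20, 0.82, 0.86 and 1.12 in WT and 1.59, 1.36, 1.55, 1.37 and 1.54 in null samples, again with no overlap. It grew by 0.48 ± 0.09 (adjusted p = 0.0148). Both passed with any 1 array left out, with adjusted p at 0.025 or below for Rcan1 and at 0.0428 or below for Nfatc2. The Ppp3r1 probe sets moved apart by 0.61 ± 0.18, which did not pass (adjusted p = 0.0779) except without null replicate 2 (0.72, adjusted p = 0.0385). For Ppp3cc the difference was 3.91, 3.93, 4.05 and 3.91 in WT and 3.89, 3.81, 3.8, 3.55 and 3.75 in null samples. These groups did not overlap either, but the shift of -0.19 ± 0.07 did not pass (adjusted p = 0.161). Which transcripts each probe set reads was not analysed here, so these differences belong to probe sets and not to named isoforms.

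The wider pathway was counted with each gene read by its probe set of smallest p, as in the methods. By that rule the median change over 16180 genes was -0.03, with the shares of higher and lower genes given for the markers above (8.03% and 6.82%). Of 66 genes in 5 lists around calcineurin and NFAT, 51 were measured, 7 were higher, 2 were lower and 42 did not pass.

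Of the regulators and anchors of calcineurin, 2 of 7 were higher and 0 lower, with a median change of 0.01, and 1 passed without WT replicate 4. Myoz2, which tethers calcineurin to the Z-disc of striated muscle, had the largest change of the 5 lists, 1.02 ± 0.11 (adjusted p = 0.000645), and its null samples all lay above the WT samples. Rcan3, another RCAN gene, was higher by 0.35 ± 0.08 (adjusted p = 0.021) on 1 probe set and stood at 0.11 on its brighter one. Chp2, a calcineurin B homologue, stood at -0.23 (adjusted p = 0.121), and Fkbp1a, whose protein inhibits calcineurin when bound to FK506, at -0.11 (adjusted p = 0.198), with its other 3 probe sets at 0.05 to 0.08.

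Of the genes that supply calcium to calcineurin, 0 of 11 passed, with a median of 0.05. The nearest were Orai2, a store-operated channel (0.19, adjusted p = 0.0913), Stim2, a sensor of store calcium (0.18, adjusted p = 0.108), Itpr3, a release channel of the store (0.25, adjusted p = 0.112), and Plcz1, the sperm phospholipase that starts egg calcium waves (-0.20, adjusted p = 0.117). The calmodulin genes and Itpr1 had no single-gene probe set and were not analysed here. The paper reported increased RNA of Itpr1 in null testes, on the arrays and by real-time PCR. Other calcineurin substrates gave 0 of 9, with a median of 0.11, and 1 passed without WT replicate 3 or without null replicate 2. The CREB coactivators Crtc3, Crtc1 and Crtc2 stood at 0.22 (adjusted p = 0.0894), -0.22 (adjusted p = 0.15) and 0.12 (adjusted p = 0.291), and the death factor Bad at -0.20 (adjusted p = 0.177). On their brightest probe sets Crtc1 had the opposite sign, at 0.14, and Crtc2 was at 0.01.

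The kinases that send NFAT out of the nucleus and the factors that act beside it held 6 of the 9 calls, with 4 of 16 higher, 2 lower and a median of 0.14. Gsk3b, an NFAT export kinase, was lower by its smallest-p probe set (-0.33 ± 0.05, adjusted p = 0.00491), while its other 5 stood at 0.09 to 0.37. Dyrk2, a kinase that primes NFAT for export, was higher by 0.48 ± 0.08 (adjusted p = 0.00771), with its other probe sets between -0.08 and 0.41. Gata4, a factor of Sertoli and Leydig cells that can partner NFAT, was higher by 0.38 ± 0.06 (adjusted p = 0.0066). Mef2c, a calcium-responsive factor of muscle and neurons, was higher by 0.41 ± 0.08 (adjusted p = 0.0127). The other Mef2c probe sets stood between -0.07 and 0.42. Jun, an AP-1 subunit that binds composite sites with NFAT, was higher by 0.60 ± 0.12 (adjusted p = 0.015). Mef2a, a factor of the same family as Mef2c, was lower on 1 probe set (-0.29 ± 0.07, adjusted p = 0.0349), with its others between -0.07 and 0.19. Jun and Mef2a were named after their values were seen.

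The list of known NFAT target genes held cytokines, ligands, early response factors and osteoclast genes, and 8 of the 16 were detected. Egr2, a zinc-finger factor induced by NFAT in T cells, was higher by 0.60 ± 0.15 (adjusted p = 0.034), and the other 7 did not pass, with a median of 0.00 over the list. The Egr2 call was lost without WT replicate 2 or without null replicate 1, 2, 4 or 5. Fasl (-0.30, adjusted p = 0.0837), Ctsk (0.32, adjusted p = 0.117) and Il2 (0.24, adjusted p = 0.268) came next.

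**Figure D5:**
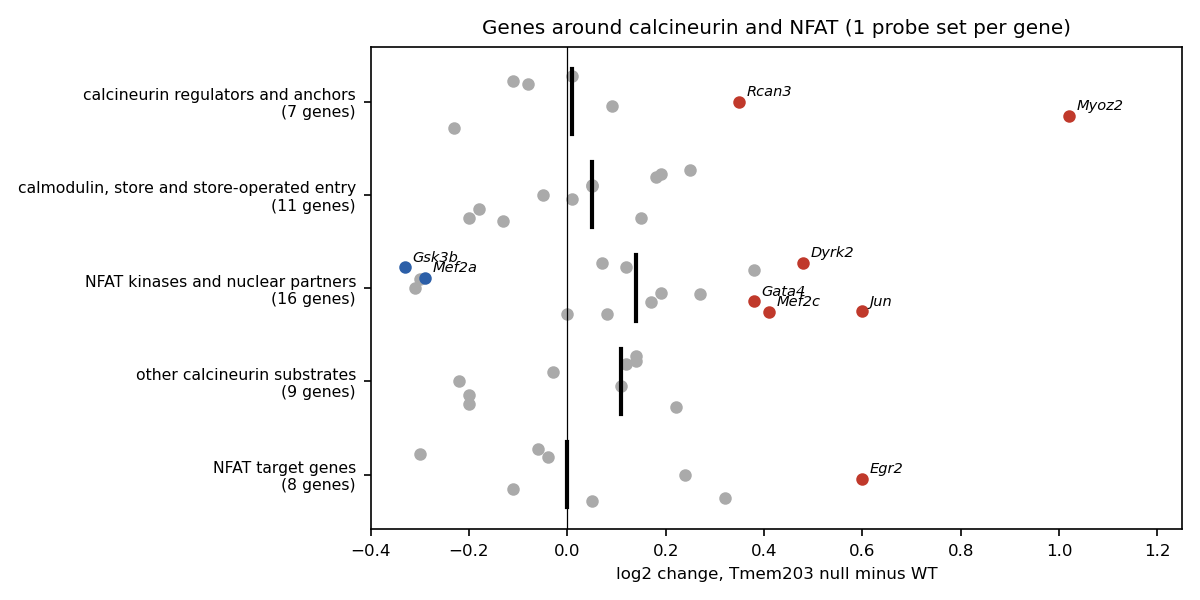
Change on the log2 scale (x axis, null minus WT) for the 51 measured genes of 5 lists around calcineurin and NFAT, 1 probe set per gene, with the list median as a bar and genes that passed an adjusted p of 0.05 in red (higher) or blue (lower). The calcium supply and other substrate lists hold no coloured gene, and the kinases and partners hold 6.

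The genes whose signals followed the sperm subunits most closely over the 9 arrays were found by Pearson's r, as a description of arrays that share their processing. For Ppp3cc (1420743_a_at) they were Slc2a8 (r = 0.966), Tamm41 (r = 0.962) and Galnt3 (r = 0.959). For Ppp3r2 they were Slc6a12 (r = 0.988), Ubac1 (r = 0.982) and Cfap20 (r = 0.978). For the brightest Nfatc2 probe set they were Slk (r = 0.982), Bms1 (r = 0.975) and Elapor1 (r = 0.97). Each was among the nearest of 29233 to 29237 detected single-gene probe sets, and with group means removed r was 0.924 or more for all 9. That second r comes from the same arrays that picked the genes and is not a separate check. How high the best r of so many unrelated probe sets would be was not tested.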

How the data were processed

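The deposited unit is the log2 signal of a probe set, which the authors made from the scans of Affymetrix mouse arrays by Robust Multichip Average (background adjustment, quantile normalization, summary), and the submitters' processing notes name limma without a version. Scan dates were not used here, so batches were not tested.

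The groups were compared by lmFit and eBayes of limma 3.58.1 in R 4.3.3, with Benjamini-Hochberg adjustment across 45037 probe sets. Another 64 were the manufacturer's controls and stayed out. The methods' thresholds were an adjusted p under 0.05, a 1.5-fold change, a linear signal of 32 (log2 of 5) on some array, and annotation to a single gene. In the platform annotation 34945 probe sets had 1 symbol, 932 several and 9160 none, and 34741 matched the RefSeq table of GRCm38.p6. All member genes were named, with up to 4 measured genes of smallest p per pathway list. Differences between probe sets were fitted over all genes in the same way. The members and lists were chosen with earlier results of these data known. Alternatives covered array weights, centring, quantile normalization, trend and robust variance estimation, the filter on dim probe sets and a filter on the probe set suffix. They also covered the replicate block, each array left out and an unpaired Student's t-test. The paper states that t-test under its general statistics, and limma for the arrays. The procedure was tested on simulated data. Python 3.11.15 drew the figures and searched the promoters.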

Additional observations from a re-analysis of the deposited data

Results flagged for a closer look

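In 4 of 60 groups of samples 1 value lay far from the others of its group, where chance gives about 1 in 20. For Ppp3cb 1427468_at, WT replicate 1 had a log2 signal of 7.52, beside 7.34 to 7.36 in the other WT samples. For Ppp3cb 1446149_at, which was not detected, WT replicate 3 had 3.54, beside 3.14 to 3.15. For Ppp3cc 1430025_at, null replicate 4 had 8.81, beside 8.64 to 8.68 in the other null samples. For Nfatc1 1425761_a_at, also not detected, WT replicate 1 had 4.16, with the others all at 4.07. None of these probe sets passed the test.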

How the results depend on the processing

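Across the array 3367 probe sets passed, and 4 of them were members. Leaving out 1 array at a time gave 1925 to 3603 across the array and 1 to 5 members: 1 without null replicate 1 or 4, 2 without null replicate 5 and 5 without WT replicate 3. The replicate block, the replicate number as a paired term, gave 1174 and 1 (Nfatc2 1426031_a_at). The deviations of same-numbered samples from their group means correlated at -0.0636 to 0.0779. Differently numbered pairs were not set beside them, so these values cannot tell whether same-numbered samples share an origin or handling. With Student's t-test and Benjamini-Hochberg adjustment, which the paper did not state for its arrays, 2058 and 2 passed. The 2 were Nfatc2 1426031_a_at again and Rcan1 1416600_a_at, which was not called by limma. The calls of Nfatc2 1426032_at, Rcan1 1416601_a_at and Rcan2 1421425_a_at were lost. The paper's general statistics set this t-test's limit at an unadjusted p under 0.01. At that limit 4399 and 5 passed, and these 3 calls were kept. With trend and robust estimation, and with array weights, 5 members passed. Keeping only probe sets whose name ends in _at without a further letter left 1 member call, Nfatc2 1426032_at. The 3 others called are of the _a_at kind.

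Among the member probe sets the direction turned for 5, none of which passed the test. Ppp3ca 1452056_s_at was 0.01 with the replicate block and -0.03 to 0.03 with 1 array left out. Ppp3cb 1428473_at was -0.01 with median centring and -0.01 to 0.06 with 1 array left out, and Nfatc1 1428479_at was -0.02 with the block and -0.03 to 0.13. Nfatc2 1439205_at was -0.02 with array weights and -0.05 to 0.18, and Nfatc2 1425901_at was -0.01 with centring, -0.05 with the block and -0.07 to 0.10. The difference between the Rcan2 probe sets ranged from -0.11 to 0.29 with 1 array left out. The differences for Rcan1 and Nfatc2 passed with quantile normalization, trend and robust estimation and array weights, and had an adjusted p of 0.0507 and 0.0539 with the replicate block. Of the kinases and partners of NFAT 3 passed with the block, and 1 of the calcium supply genes passed with trend and robust estimation. The cause was not tested. The number of arrays limits the precision.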
